A study of Caenorhabditis elegans with 11 samples.

Results

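Heat shock genes encode molecular chaperones, proteins that bind unfolded polypeptides and keep them from aggregating. In Caenorhabditis elegans the transcription factor HSF-1 switches on their inducible members when worms are warmed or their proteins misfold. HSP70 proteins refold clients with ATP, whereas small heat shock proteins of the alpha-crystallin family hold clients without it. The 4 genes described here were taken by name from the deposited tables: hsp-70, hsp-16.2, hsp-16.41 and sip-1. They are 4 of the 939 distinct genes, and 5 of the 1106 entries, in the 6 tables. All 4 are in the table of genes lower in glp-4 adults (88 genes), and hsp-70 is also in the table of genes higher in smg-1 larvae (346 genes). No entry for any of them is in the N2 tables, so wild-type values are not analysed here.

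RNA of whole worms, enriched for poly(A), was sequenced after feeding RNA interference (RNAi) against prp-31, prp-8 or prp-6, whose products are proteins of the spliceosome's tri-snRNP; a clone against gfp was the control. The glp-4(bn2) strain SS104 gave 3 libraries (prp-31, prp-8 and gfp), from adults of day 5 raised at 25 °C, given OP50 bacteria for 72 h and an RNAi clone for 48 h. The smg-1(r861) strain TR1331 gave 4 libraries (prp-31, prp-8, prp-6 and gfp), and so did N2, the wild type; both were fed the clones from the L1 stage for 24 h at 20 °C and are labelled L3 larvae. Every group had 1 library. No difference below therefore has a replicate check or a test. The glp-4(bn2) mutation stops germ cells from proliferating at the warmer temperature, and the smg-1 product is a kinase required for nonsense-mediated mRNA decay. The gfp controls of a strain carry its mutation too. The titles of the glp-4 libraries say L3 while their stage field says adult, and the titles of its tables say glp-1; the stage field and the strain of the labels were followed.

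Levels are the authors' FPKM, fragments scaled to transcript length and library size, so genes can be compared within a library. Depth per library is unknown beyond a minimum in the labels. A fold is the ratio of knockdown FPKM + 1 to gfp FPKM + 1, and a log2 difference is the log2 of that ratio. Genes entered a table because the authors' pooled knockdowns lay above or below gfp, so the direction shared by the genes of a table was set by that choice and is no finding. The authors' q-values quoted below set the pooled clones of a strain against its gfp control. They are no replicate check of any clone.

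In glp-4 adults the heat shock genes fell into a group of 3 and a single gene with the opposite preference between the clones. The inducible chaperone gene hsp-70 and the small heat shock genes hsp-16.2 and hsp-16.41 had their lowest level with prp-31 RNAi, an intermediate level with prp-8 RNAi and their highest level with gfp. The small heat shock gene sip-1, whose protein is known from oocytes and embryos, was instead near its gfp level with prp-31 RNAi and lowest with prp-8 RNAi.

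The hsp-70 gene had 21.1 FPKM with prp-31 RNAi and 51.6 FPKM with prp-8 RNAi, against 98.6 FPKM with gfp. Its level was thus 4.50-fold lower with prp-31 and 1.89-fold lower with prp-8 than with gfp. This gene encodes a cytosolic HSP70 that is scarce in unstressed worms and strongly induced by heat. In the authors' deposited table its pooled comparison has a q-value of 0.130, and its deposited interval on chromosome I runs from 9322407 to 9322511.

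The hsp-16.2 gene, whose promoter drives a widely used reporter of heat stress, had 34.1 FPKM with prp-31 RNAi and 62.0 FPKM with prp-8 RNAi, against 121 FPKM with gfp. Its level was 3.47-fold lower with prp-31 and 1.93-fold lower with prp-8. The neighbouring gene hsp-16.41 had 33.9 FPKM with prp-31 RNAi and 63.0 FPKM with prp-8 RNAi, against 149.9 FPKM with gfp. Its level was 4.32-fold lower with prp-31 and 2.36-fold lower with prp-8. In the authors' deposited table the q-values of the pooled comparison are 0.409 for hsp-16.2 and 0.0495 for hsp-16.41; a q-value below 0.05 is given for 5 genes of this lower table (5.68% of 88).

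The genes hsp-16.2 and hsp-16.41 lie side by side on chromosome V. The deposited intervals run from 1804799 to 1804971 for hsp-16.2 and from 1805233 to 1805875 for hsp-16.41, which leaves 261 bases between them. The Ensembl annotation (WBcel235) places them as adjacent protein-coding genes on opposite strands that point away from each other. Their levels stayed close to each other in every library: the FPKM of hsp-16.41 was 0.994 times that of hsp-16.2 with prp-31, 1.02 times with prp-8 and 1.24 times with gfp. RefSeq's gene table names 8 hsp-16 genes, of which the other 6 are in no table. The hsp-16 family holds close copies whose reads the authors' estimates could have split, so the level of each copy is uncertain.

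The sip-1 gene had 97.2 FPKM with prp-31 RNAi and 18.5 FPKM with prp-8 RNAi, against 111 FPKM with gfp. Its level was 1.14-fold lower with prp-31 and 5.75-fold lower with prp-8. The deposited interval is on chromosome III, from 10506430 to 10506801, and the q-value in the authors' deposited table is 0.758. In the prp-31 library sip-1 had the highest level of the 4 genes, 2.85 times the FPKM of hsp-16.2. In the prp-8 library it had the lowest, 0.298 times that of hsp-16.2, and with gfp the ratio was 0.920.

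**Figure D1:**
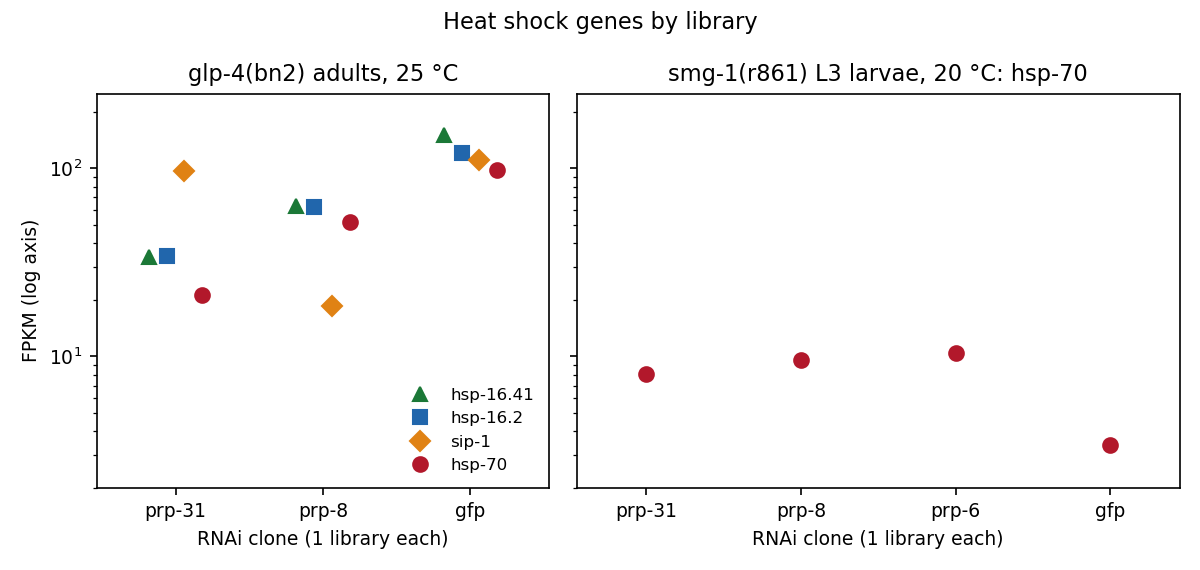
FPKM (log axis) of hsp-16.41, hsp-16.2, sip-1 and hsp-70 in each glp-4 library (left) and of hsp-70 in each smg-1 library (right), by RNAi clone; each point is 1 library and there are no error bars. In glp-4, sip-1 is highest of the 4 genes with prp-31 (97.2 FPKM) and lowest with prp-8 (18.5 FPKM), while the other genes are lowest with prp-31 (21.1 to 34.1 FPKM).

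Of the 4 genes, 3 were at least 2-fold lower with prp-31 RNAi, where 9 of all 146 glp-4 table genes were (6.16%). With prp-8 RNAi 2 of the 4 were, hsp-16.41 and sip-1, where 76 of the 146 were (52.1%). All 4 members are in the lower table. Of its 88 genes, 9 were at least 2-fold lower with prp-31 and 76 with prp-8. The prp-8 count of the members was thus near the share in both tables and below that in the lower table. The median log2 difference of the 4 genes was −1.95 with prp-31 and −1.10 with prp-8. Over both glp-4 tables it was −0.34 with prp-31 and −1.04 with prp-8, and over the lower table alone −0.49 with prp-31 and −1.94 with prp-8. Because the tables hold selected genes only, these shares describe the lists and not the genome. When each library was rescaled to these medians over both tables, the log2 differences with prp-8 became 0.12 for hsp-70, 0.089 for hsp-16.2 and −0.20 for hsp-16.41, and that of sip-1 with prp-31 became 0.14. The decreases of hsp-70, hsp-16.2 and hsp-16.41 with prp-31 and of sip-1 with prp-8 kept their direction.

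On the scale of FPKM + 1, the order hsp-70, hsp-16.41, hsp-16.2 was also the order of the largest decreases with prp-31 among the 88 lower genes. Their log2 differences were −2.17, −2.11 and −1.80. The other 6 genes at least 2-fold lower with prp-31 had log2 differences from −1.30 to −1.10, and their gfp levels lay between 1.66 and 13.4 FPKM. They were Y71A12B.11, dhs-8, col-125, dpy-13, ttr-50 and dpy-14, among them the cuticle collagen genes col-125, dpy-13 and dpy-14. Adding 1 FPKM shrinks the ratios of genes at such low levels, so the ranks and this gap belong to that scale. In plain FPKM ratios Y71A12B.11, dpy-13 and col-125 fell further than hsp-70. With prp-31 and gfp they had 0.119 and 1.75 FPKM, 0.157 and 1.66 FPKM, and 0.495 and 2.54 FPKM, in that order. The 3 heat shock genes had far higher gfp levels, and by that level hsp-16.41, hsp-16.2, sip-1 and hsp-70 ranked 4, 5, 6 and 8 of the 88.

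The clones can be set against each other without the gfp library. The level of hsp-70 with prp-31 was 0.421 times that with prp-8, a log2 ratio of −1.25 from FPKM + 1. The log2 ratio of prp-31 to prp-8 was −0.87 for hsp-16.41 and −0.84 for hsp-16.2, and these 3 genes had the lowest ratios of the 88. For sip-1 it was 2.33, the tenth highest, and the median of the table was 1.498. Only 8 of the 88 genes had a lower level with prp-31 than with prp-8 (9.09%). The other 5 were dhs-8, dpy-13, Y71A12B.11, cnc-7 and col-133, with log2 ratios from −0.28 to −0.02. One of these, cnc-7, was abundant, with 501 FPKM with prp-31 and 524 FPKM with prp-8, against 624 FPKM with gfp.

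**Figure D2:**
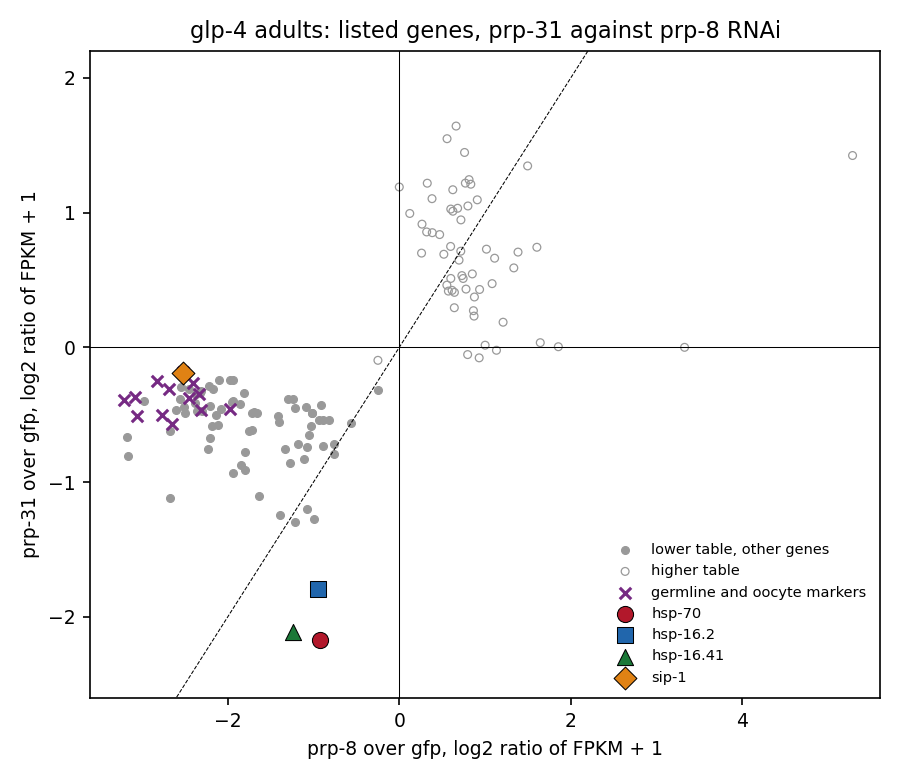
Log2 ratio of prp-31 to gfp (vertical axis) against that of prp-8 to gfp (horizontal axis) for the listed glp-4 genes, from FPKM + 1; each point is 1 gene, the dashed line marks equal ratios, and rrn-2.1 (8.01 with prp-8 and 3.22 with prp-31) lies outside the axes. The genes hsp-70, hsp-16.2 and hsp-16.41 lie below the dashed line and below every other gene. On the left, sip-1 lies at −0.19 on the vertical axis, among the germline and oocyte markers.

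The genes most like each member were found by Euclidean distance between the log2 differences of prp-31 and prp-8, over the named genes of the lower table with no library at 0. The nearest genes to hsp-70 were hsp-16.41 at a distance of 0.32 and hsp-16.2 at 0.38, and hsp-16.2 and hsp-16.41 were 0.43 apart. The next gene, the short-chain dehydrogenase gene dhs-8, was 0.90 from hsp-70, 0.88 from hsp-16.41 and 0.53 from hsp-16.2. It had 1.63 FPKM with prp-31 and 2.19 FPKM with prp-8, against 5.35 FPKM with gfp.

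The nearest genes to sip-1 belonged to another set. The yolk receptor gene rme-2 was at a distance of 0.01, with 13.9 FPKM with prp-31 and 1.95 FPKM with prp-8, against 15.97 FPKM with gfp. It was followed by nasp-2 at 0.11, trcs-1 at 0.14, the oocyte maturation gene oma-1 at 0.15 and the chondroitin proteoglycan gene cpg-3 at 0.20. Of these 5 genes, rme-2, oma-1 and cpg-3 are on the list of germline and oocyte markers. The distances rest on 2 values per gene, from libraries that share a gfp control.

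Of the 38 germline and oocyte markers, 13 were in the lower glp-4 table and 0 in the higher one. Their log2 differences with prp-8 lay between −3.20 and −1.97, and with prp-31 between −0.57 and −0.18. The differences of sip-1, −2.52 with prp-8 and −0.19 with prp-31, fall inside both ranges, and those of hsp-70, hsp-16.2 and hsp-16.41 fall outside both. Summed over the 13 markers, the level was 392 FPKM with prp-31 and 66.5 FPKM with prp-8, against 516 FPKM with gfp. None of the 13 was at 0 in any library, and their gfp levels lay between 7.05 FPKM for gld-3 and 107 FPKM for cey-2, although this strain is labelled as grown at the temperature that blocks its germ line. In RNA of whole worms, fewer cells of a type and less RNA per cell cannot be told apart. The part of germline RNA in the sip-1 values was not tested. None of the 8 muscle, 10 intestine, 6 neuron and 5 hypodermis markers was in a glp-4 table, and with such short lists nothing is read from this. The cuticle collagen genes col-125, dpy-13 and dpy-14, which are not among these markers, were in the lower one. The prp-8 library also held 102770 FPKM of the ribosomal RNA gene rrn-2.1, the prp-31 library 3716 FPKM and the gfp library 397 FPKM; its part in the prp-8 values was not tested.

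In smg-1 larvae the only heat shock gene of the 4 in the tables was hsp-70, and it was higher in every knockdown. It had 8.06 FPKM with prp-31, 9.57 FPKM with prp-8 and 10.5 FPKM with prp-6 RNAi, against 3.40 FPKM with gfp. The 3 knockdown libraries lay close together and all above gfp. The level was 2.06-fold, 2.40-fold and 2.61-fold higher in that order, and in the authors' deposited table the pooled q-value is 0.0187. A q-value below 0.05 is given for 130 of the 346 genes of that table (37.6%).

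The hsp-70 values of the smg-1 knockdowns can be set beside those of the other listed genes. Its log2 differences were 1.04 with prp-31, 1.27 with prp-8 and 1.38 with prp-6, a spread of 0.34 between the highest and the lowest. That was the ninth smallest spread among the 346 genes, whose median spread was 1.23. Rescaled by the medians over both tables, the differences were 0.78 with prp-31, 0 with prp-8 and 0.67 with prp-6, so the order of prp-31 and prp-8 was turned round. The median with prp-8, 1.27, is the value of hsp-70 itself, which is why its rescaled difference is 0. Of all 485 smg-1 table genes, 23 were at least 2-fold higher with prp-31 (4.74%), 296 with prp-8 (61%) and 142 with prp-6 (29.3%). In the higher table, 16 genes were at least 2-fold higher with every clone (4.62% of 346), hsp-70 among them. That call was lost with every clone on 2 other scales: with a pseudocount of 5 FPKM its log2 differences were 0.64 with prp-31, 0.80 with prp-8 and 0.88 with prp-6, and rescaled they were again under 2-fold. With prp-31 its difference ranked 20 of the 346, and with prp-8 it ranked 242 and was below the higher table's median of 1.57.

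The named smg-1 genes nearest to hsp-70 over the 3 knockdowns were lpd-6 at a distance of 0.24, pcp-3 at 0.29, the P-glycoprotein gene pgp-1 at 0.34, hacd-1 at 0.39 and the poly(A)-binding protein gene pabp-2 at 0.49. None of them is on the heat shock and chaperone list. The P-glycoprotein gene pgp-1 had 5.40 FPKM with prp-31, 8.49 FPKM with prp-8 and 7.79 FPKM with prp-6, against 2.16 FPKM with gfp.

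**Figure D3:**
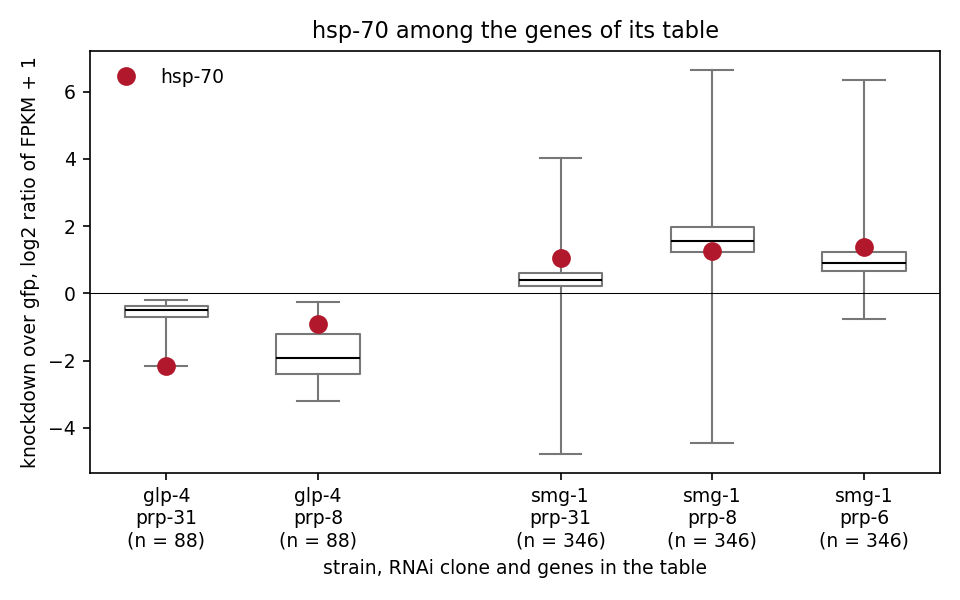
Log2 ratio of each knockdown to gfp, from FPKM + 1, for hsp-70 (red point, 1 library against 1) over all genes of its table (box from the lower to the upper quartile, line at the median, whiskers to the lowest and highest gene): 88 genes of the glp-4 lower table and 346 of the smg-1 higher table. With prp-31 in glp-4, hsp-70 is at the lower end of its table (−2.17); in smg-1 its 3 values lie between 1.04 and 1.38.

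The choice that listed hsp-70 as lower in glp-4 and higher in smg-1 set its pooled directions, so opposite directions are no finding by themselves. As deposited, hsp-70 was below gfp in glp-4 and above it in smg-1 with both shared clones. This difference could not be tested with 1 library per group. With libraries rescaled by their medians over both tables it held with prp-31 alone. Those medians come from selected genes and follow the makeup of the lists, so the rescaled values cannot decide whether the difference holds. With prp-31 RNAi the log2 difference of hsp-70 was −2.17 in glp-4 adults and 1.04 in smg-1 larvae. With prp-8 RNAi it was −0.92 in glp-4 adults and 1.27 in smg-1 larvae; rescaled, the prp-8 values were 0.12 in glp-4 adults and 0 in smg-1 larvae, and the prp-31 values −1.83 in glp-4 adults and 0.78 in smg-1 larvae. The controls also differed in level: with gfp hsp-70 had 98.6 FPKM in glp-4 adults and 3.40 FPKM in smg-1 larvae. Even its lowest glp-4 value, 21.1 FPKM with prp-31, was above its highest smg-1 value, 10.5 FPKM with prp-6. The tables of the strains were made separately, and strain, stage, temperature, feeding time and table all change together, so their parts in these levels cannot be told apart.

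Only 11 genes are in tables of both strains (7.53% of the 146 glp-4 genes and 2.27% of the 485 smg-1 genes). Of these, 7 were in the higher table of both strains and 2 in the lower table of both. The other 2, hsp-70 and the eggshell proteoglycan gene cpg-2, were in the lower table in glp-4 and the higher table in smg-1, and 0 genes had the reverse pattern. With gfp, cpg-2 had 83.3 FPKM in glp-4 adults and 8.23 FPKM in smg-1 larvae. With prp-8 its log2 difference was −2.69 in glp-4 and 1.30 in smg-1, and with prp-31 −0.31 in glp-4 and 0.33 in smg-1. Some other shared genes had like gfp levels in both strains: the cystathionine gamma-lyase gene cth-1 had 179.8 FPKM in glp-4 adults and 183 FPKM in smg-1 larvae, and pgp-1 had 2.08 FPKM in glp-4 and 2.16 FPKM in smg-1. Others did not. With gfp, C50F7.5 had 121 FPKM in glp-4 adults and 28.9 FPKM in smg-1 larvae. The gene rrn-2.1 had 397 FPKM in glp-4 and 4034 FPKM in smg-1. These genes were chosen after their values were seen.

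RefSeq's gene table holds 102 protein-coding genes of the heat shock and chaperone list, and 8 of them are in any of the 6 tables (7.84%). Over all 19983 protein-coding genes of that annotation, 878 are (4.39%). Of the 24 genes named hsp, 3 are. Of the 8 genes, 4 are the members, whose presence was fixed because they were taken by name from the tables. Nothing is therefore read from these shares. The 4 beside the members are all cyclophilin genes, which encode peptidyl-prolyl isomerases. In smg-1 larvae, cyn-8 had 16.36 FPKM with prp-31, 39.7 FPKM with prp-8 and 22.99 FPKM with prp-6, against 12.1 FPKM with gfp. In the same larvae cyn-15 had 24.0 FPKM with prp-31, 48.0 FPKM with prp-8 and 34.3 FPKM with prp-6, against 19.8 FPKM with gfp. In N2 larvae cyn-17 is in the higher table and cyn-9 in the lower one.

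Lists of related stress pathways can be read against the same share of 4.39%. Of 34 proteasome genes, 0 are in any table, of 75 annotated genes of the unfolded protein response list 5 are (6.67%), and of 28 genes linked to insulin signalling 3 are (10.7%); with such small counts nothing is read from these shares. The unfolded protein response list was made by gene name and takes in every abu and pqn gene. It has 5 genes in the N2 higher table and 1, pqn-63, in the smg-1 higher table. Of these 6, 1 has no match among the annotated protein-coding genes. All 6 are abu or pqn genes, and none is the chaperone gene hsp-3 or hsp-4. Whether they act in the unfolded protein response was not tested. In glp-4 adults the list has 0 genes. The list linked to insulin signalling has 1 gene in the higher table of each strain. In glp-4 it is dod-24, with 70.2 FPKM with prp-31 and 142 FPKM with prp-8, against 74.2 FPKM with gfp.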

How the data were processed

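RNA of whole worms was sequenced in 11 libraries, 1 per group, grouped by the labels. The authors deposited 6 tables of selected genes, each with a P-value of at most 0.01. The submitters' processing notes name Cufflinks and Cuffdiff. Versions, aligner, build and annotation: not given in the sources used here. The tables hold, per the file headers, FPKM per library, pooled FPKM, a log2 fold change, P-values and q-values. A test statistic, a score, was deposited in 5 tables and not used. The start or end of 605 of 939 deposited intervals (64.4%) is an exon start or end in WBcel235; only deposited coordinates are printed.

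From the single-library FPKM, log2 ratios with a pseudocount of 1, ranks, Euclidean distances (5 nearest named genes) and shares past 2-fold were computed. With 1 library per group there is no test. The members and lists were chosen with earlier results of these data known. Genes named are the members, the listed genes of the fixed lists and the nearest genes; others were chosen after their values were seen. Alternatives were other pseudocounts (0.1, 5 and none), rescaling, another threshold, left-out libraries and the authors' pooled fold. The folds and distances were tested on simulated data of 146 genes. The work was done in Python 3.11.15 with pandas 2.3.3, numpy 2.4.6 and, for figures, matplotlib 3.10.9. No sequences are shown.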

Additional observations from a re-analysis of the deposited data

Results flagged for a closer look

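The difference between strains for hsp-70 is marked because both glp-4 knockdowns lay below gfp and all 3 smg-1 knockdowns above it. Listing hsp-70 as lower in glp-4 and higher in smg-1 had set its pooled directions, so opposite directions are no finding by themselves. The log2 difference from gfp in glp-4 minus that in smg-1 was −3.21 with prp-31 RNAi and −2.19 with prp-8 RNAi. With libraries rescaled by the median of both tables it was −2.61 with prp-31 and 0.12 with prp-8. On that scale the opposite direction remained with prp-31 and not with prp-8. These medians come from selected genes and follow the makeup of the lists, so the rescaled values cannot decide whether the difference holds. The difference was not tested, as each group has 1 library.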

How the results depend on the processing

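No paired analysis was possible because every group has 1 library and no replicate numbers. Of 103 alternative values, 86 kept their direction and moved by less than 1.5-fold; among these were all values with pseudocounts of 0.1, 5 or none, and the authors' pooled folds. The ranks of the decreases with prp-31 in glp-4 and the 2-fold calls of hsp-70 in smg-1 were not among the 103. Those calls were lost with a pseudocount of 5 FPKM. Rescaling each library by the median of both tables subtracted medians of −0.34 (prp-31) and −1.04 (prp-8) from the log2 differences in glp-4. In smg-1 the subtracted medians were 0.27 (prp-31), 1.27 (prp-8) and 0.71 (prp-6). These medians come from selected genes, so they follow the makeup of the lists. Relative to them, prp-8 in glp-4 gave 0.12 for hsp-70, 0.089 for hsp-16.2, −0.20 for hsp-16.41 and −1.48 for sip-1, and prp-31 gave 0.14 for sip-1. The prp-31 to prp-8 log2 ratio became −1.95 for hsp-70, −1.55 for hsp-16.2, −1.58 for hsp-16.41 and 1.63 for sip-1 in glp-4, and 0.78 for hsp-70 in smg-1, where prp-8 gave 0 and prp-6 0.67. With a threshold of 1.5-fold, 4 members instead of 2 were lower with prp-8 in glp-4.

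Leaving out each knockdown library gave mean log2 differences in glp-4 from −2.17 to −0.92 for hsp-70, from −1.80 to −0.95 for hsp-16.2, from −2.11 to −1.24 for hsp-16.41 and from −2.52 to −0.19 for sip-1, and in smg-1 from 1.15 to 1.32 for hsp-70. The end nearer 0 is without the prp-31 library for the first 3 genes and without prp-8 for sip-1. In glp-4 each such value is the log2 difference of the only knockdown library left, given above, so it is no separate check. The unknown depth allows no counting interval.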

Other observations

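The pooled knockdown value of hsp-70 in the authors' deposited glp-4 table is 52.1 FPKM, 1.43 times the mean of its 2 knockdown libraries. The same ratio was 1.35 for hsp-16.2, 1.22 for hsp-16.41 and 1.07 for sip-1, and the median over the lower glp-4 table was 1.19. The authors' deposited log2 fold changes are −1.15 for hsp-70, −1.07 for hsp-16.2, −1.37 for hsp-16.41 and −0.85 for sip-1, so the deposited pooled values do not show the opposite preference of sip-1 and the other genes for the clones.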
